A study of Mus musculus with 40 samples.

Results

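The genes described here encode the proteins of the cytosolic ribosome. They were chosen by symbol: every gene whose annotated symbol begins with Rpl, Rps or Rplp followed by a digit, or is Rpsa, without the Rps6k kinases. Of 63 such genes on the arrays, 27 had values in at least 3 mice of each of the 4 groups and are called members below, out of 5297 genes and unnamed probes that met the same condition. The members are 15 proteins of the large subunit, 10 of the small subunit and the 2 paralogs Rps27l and Rpl39l, and they lie on 15 chromosomes. The rule names no size of change, but it was set with earlier results of these data known. The other 36 matching genes were not tested, 22 of them because no array had a value. The bone marrow cells came from DBA/2 mice, an inbred strain, in 4 groups of 5: untreated controls, and mice sampled 1, 2 or 5 days after an intraperitoneal dose of cyclophosphamide at 83 mg/kg. Cyclophosphamide is a drug whose metabolites cross-link DNA. The sources used here give neither age nor sex. The RNA of each mouse, labelled with Cy5, was hybridised on 2 arrays against a Cy3-labelled reference pool. The pool is described as untreated marrow, although its treatment field mentions cyclophosphamide; it is the same in all groups and cancels between them.

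Ribosomal proteins assemble with ribosomal RNA into the large subunit, which forms peptide bonds, and the small subunit, which reads the messenger RNA. Cells that grow and divide make these proteins in large and balanced amounts, and in marrow such cells are the precursors of the blood lineages. Messengers of this family begin with a C followed by a run of pyrimidines, through which the mTOR kinase and Larp1 control their translation and storage; arrays of total RNA measure how much messenger is present and not how fast it is translated.

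Each value below is the deposited log ratio of a mouse to the reference pool, taken as log2 with positive numbers for more RNA in the mouse, and n counts mice, with the 2 arrays of a mouse averaged. The sign rests on the dyes, since every mouse was labelled with Cy5 (the lowest correlation between any 2 arrays was -0.175), and the log base is an assumption. Between 4079 and 7977 of the 13443 probes had a value on an array, and array medians lay within 0.015 of 0, so that a gene is measured relative to the other genes of its array. The 2 arrays of a mouse differed by a median of 0.079 for the members, against a median SD of 0.35 between mice of a group. On 35 of the 40 arrays 5 to 42 probes shared a single value to within 0.001, at a level between -0.73 and -0.20 that differed between arrays. Ribosomal protein probes were often among them: 119 of 1013 member values (11.7%) sat at this shared value, against 0.262% of all values. The affected members were 11, and 16 were never at it. Shared values were unevenly spread over the groups, most frequent in controls, then on day 1, and rarer on days 2 and 5. Rps23 had them on 9, 8, 4 and 4 arrays of control, day 1, day 2 and day 5, and Rps6 on 7, 2, 1 and 0. Rps14 and Rpl34 had them on more arrays of day 1 than of control. Since the shared level was below 0, comparisons with control are the most exposed to it. Mice in which a gene was at the shared value on at least 1 array are named below, since other probes had the same value there; the cause was not tested. Every member had 1 probe, and ribosomal protein genes have many near-identical pseudogene copies, so that the source of the signal is uncertain for any single probe.

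On day 1 after cyclophosphamide, 10 of the 27 ribosomal protein transcripts were lower than in control mice, and the count depended on few mice. By limma 10 members fell and 0 rose at an adjusted p under 0.05, where 8.38% of all features fell and 10.7% rose. At an unadjusted p under 0.05, 12 members were lower and 0 higher. The median change of the members was -0.43 on the log2 scale, against -0.015 over all features, and 22 of 27 changes were below 0. By subunit, 7 of 15 large-subunit members and 3 of 10 small-subunit members fell, and neither of the paralogs did. The falls ranged from 1.44-fold for Rpl7a to 1.79-fold for Rpl28. In 4 members (Rpl28, Rpl19, Rps18 and Rpl34) every day 1 mouse lay below every control mouse, as it did for 6.1% of all features. The count of falls was 5 of 24 members tested without day 1 mouse 2 or without day 1 mouse 4, where Rpl19, with values in 3 day 1 mice, was no longer tested, and 6 without control mouse 1 or without control mouse 3. Without day 1 mouse 4 alone the median change of the members was -0.22. Control mouse 3 was the highest control and day 1 mouse 4 the lowest day 1 mouse in the median of the members. With both left out, which was chosen after these values had been seen, 1 of 24 members tested fell (Rpl15, -0.52, limma adjusted p = 0.0475) and the median change was -0.20. A moderated F test over the 4 groups passed for 12 of the 27 members, and for 30.7% of all features.

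**Figure D1:**
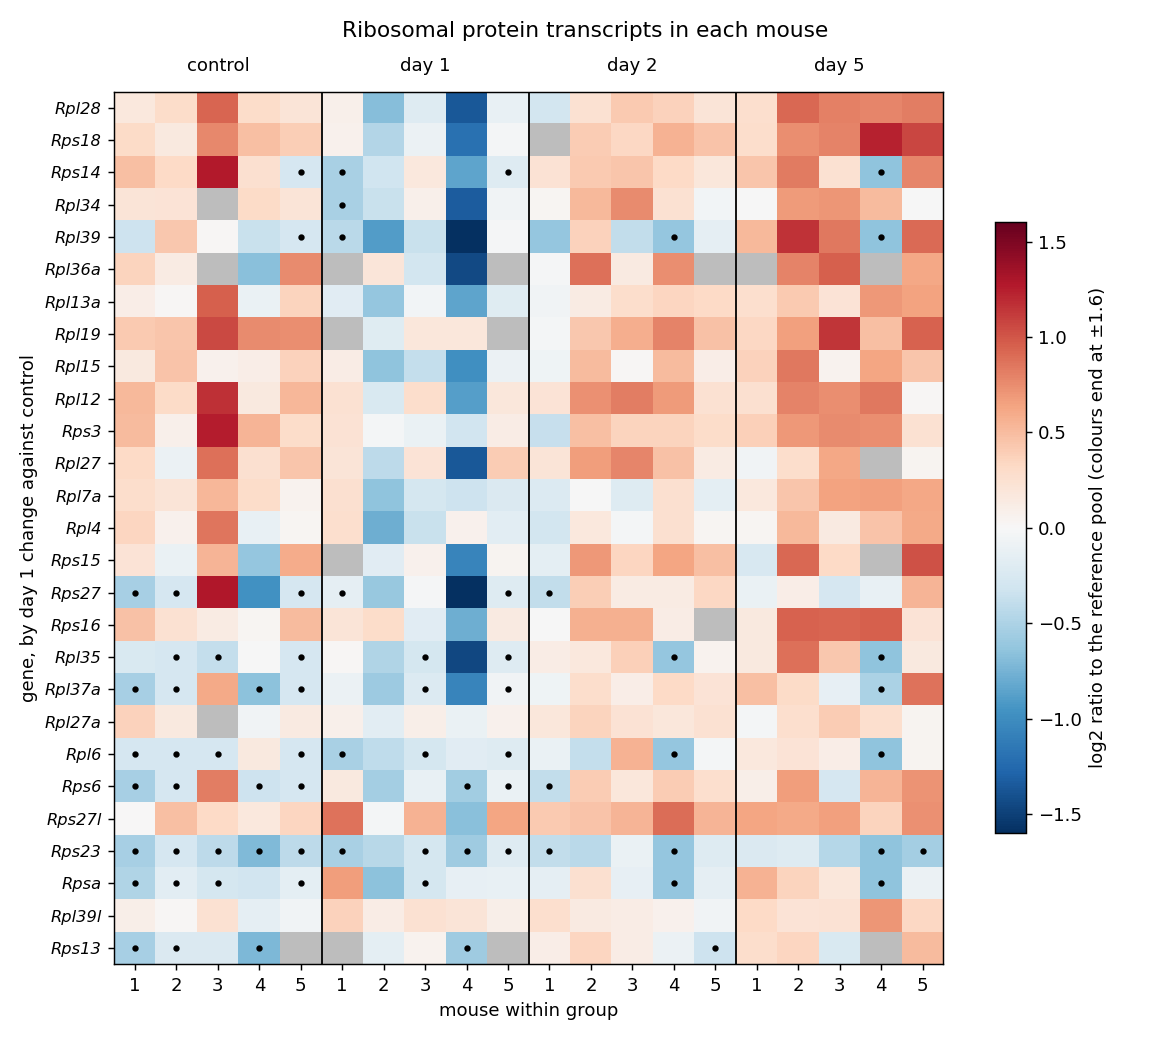
Log2 ratio to the reference pool of the 27 members (rows, ordered by their day 1 change) in each of the 20 mice (columns, by group). Grey cells have no value and dots mark a shared value on at least 1 array of the mouse; day 1 mouse 4 is the bluest column and control mouse 3 is red for most genes, while the lower rows carry most of the dots.

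The stretch around the annotated start of transcription is shown for 5 members that fell on day 1 (Rpl28, Rps18, Rpl7a, Rpl15 and Rpl13a) and 2 that were not called (Rps6 and Rps27), since the pyrimidine run there is the feature that the family is known for. The sequences are from RefSeq promoters on build GRCm38.p6, 5′ to 3′ on the strand of the gene, from 60 bases before the start to 30 after it. Capitals mark the longest unbroken run of C and T within 20 bases of the start. The windows lie at chr7:4792905-4792994 (plus strand), chr17:33955636-33955725 (minus strand), chr2:26910747-26910836 (plus strand), chr14:18270957-18271046 (minus strand), chr7:45128716-45128805 (minus strand), chr4:86857338-86857427 (minus strand) and chr3:90213619-90213708 (minus strand).
Rpl28: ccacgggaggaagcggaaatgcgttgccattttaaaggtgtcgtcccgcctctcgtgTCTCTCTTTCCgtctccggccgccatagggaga
Rps18: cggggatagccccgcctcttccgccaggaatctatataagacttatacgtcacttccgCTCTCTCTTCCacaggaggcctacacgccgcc
Rpl7a: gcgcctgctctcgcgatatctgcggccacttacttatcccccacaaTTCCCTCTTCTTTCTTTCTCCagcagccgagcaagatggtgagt
Rpl15: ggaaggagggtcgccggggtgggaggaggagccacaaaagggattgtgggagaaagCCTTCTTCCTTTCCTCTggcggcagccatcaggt
Rpl13a: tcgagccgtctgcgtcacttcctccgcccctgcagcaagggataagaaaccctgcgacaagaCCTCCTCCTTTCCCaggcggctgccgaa
Rps6: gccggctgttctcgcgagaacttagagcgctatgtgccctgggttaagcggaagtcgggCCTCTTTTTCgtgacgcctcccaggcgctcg
Rps27: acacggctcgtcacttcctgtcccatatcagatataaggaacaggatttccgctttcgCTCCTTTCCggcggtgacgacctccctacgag
The run is 21 bases long in Rpl7a, 17 in Rpl15, 14 in Rpl13a, 11 in Rpl28 and in Rps18, 10 in Rps6 and 9 in Rps27. These 7 do not stand for all members. Over all members with a promoter, the run was 5 (Rps3) to 21 bases (Rpl7a) long in those that fell, with a median of 11. In the others it was 5 (Rps16) to 20 bases (Rpl27a) long, with a median of 7. Promoters were found for 26 of the 27 members. A run of 8 or more C or T within 20 bases of the start was present in 15 of these 26 (57.7%), against 23.7% of 27025 genes of the table. Among members that fell on day 1 it was present in 7 of 9, and among the others in 8 of 17. The letters CTTCCG, the core of ETS family sites, occurred on either strand of the 300-base promoter in 22 of 26 members (84.6%) and in 18.8% of all genes. The letters ATGGCG, the core of YY1 sites, occurred in 10 of 26 (38.5%) and in 10.2% of all genes. ETS and YY1 matches were searched separately, and these counts describe letters only.

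Among large-subunit proteins the fall of Rpl28 was the largest. Rpl28 is a eukaryote-specific protein of the large subunit. Its log2 ratio was 0.17, 0.29, 0.93, 0.29 and 0.21 in control mice 1 to 5 and 0.087, -0.69, -0.21, -1.36 and -0.11 in day 1 mice 1 to 5. The day 2 mice had -0.29, 0.24, 0.41, 0.37 and 0.21 and the day 5 mice 0.27, 0.92, 0.81, 0.78 and 0.82. Every day 1 mouse was below every control mouse, mouse 4 the furthest, and 4 of the 5 day 5 mice stood close together above 4 of the controls. Rpl28 fell 1.79-fold on day 1, a log2 change of -0.84 ± 0.21 (SE) (limma adjusted p = 0.00856), and rose from day 1 to day 5 by 1.18 ± 0.21 (SE), 2.26-fold (adjusted p = 0.000266).

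Rpl15 lies in the core of the large subunit, and mutations of the human gene occur in Diamond-Blackfan anaemia. The ratios of Rpl15 were 0.16, 0.46, 0.070, 0.11 and 0.37 in control mice 1 to 5 and 0.12, -0.64, -0.39, -0.98 and -0.092 in day 1 mice 1 to 5. Values on day 2 were -0.071, 0.51, 0.016, 0.51 and 0.11, and on day 5 0.37, 0.85, 0.059, 0.64 and 0.45. Day 1 mouse 1 lay within the range of the controls and the other 4 below it. It fell on day 1, with a log2 change of -0.63 ± 0.18 (SE) (adjusted p = 0.0163), and it passed in all 20 fits that left out 1 mouse. Rpl13a is also released from the ribosome as part of a complex that blocks translation of inflammatory messengers. For Rpl13a the values were 0.11, 0.019, 0.96, -0.10 and 0.36 in control mice 1 to 5 and -0.19, -0.62, -0.048, -0.85 and -0.20 in day 1 mice 1 to 5. In day 2 mice they were -0.051, 0.14, 0.28, 0.34 and 0.31, and in day 5 mice 0.27, 0.41, 0.21, 0.70 and 0.64. Control mouse 3 stood well above the other controls, and control mouse 4 overlapped the day 1 mice. Rpl13a fell on day 1, with a log2 change of -0.65 ± 0.17 (SE) (adjusted p = 0.012).

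Rpl7a is a large-subunit protein that binds ribosomal RNA. Its ratios were 0.29, 0.21, 0.54, 0.30 and 0.060 in control mice 1 to 5 and 0.25, -0.65, -0.28, -0.33 and -0.23 in day 1 mice 1 to 5. On day 2 the mice had -0.22, -0.0077, -0.20, 0.25 and -0.15, and on day 5 0.17, 0.44, 0.65, 0.66 and 0.62. Day 1 mouse 1 lay within the range of the controls, and 4 of the 5 day 2 mice lay below them. The day 1 fall was -0.52 ± 0.14 (SE) (adjusted p = 0.0123), the day 2 difference of -0.34 ± 0.14 (SE) did not pass (adjusted p = 0.089), and Rpl7a was the member that rose from day 2 to day 5, by 0.57 ± 0.14 (SE) (adjusted p = 0.00483). Rpl19 takes part in a bridge between the subunits. The values were 0.42, 0.44, 1.06, 0.76 and 0.74 in control mice 1 to 5 and no value, -0.20, 0.18, 0.18 and no value in day 1 mice 1 to 5. Mice of day 2 had -0.029, 0.44, 0.58, 0.79 and 0.47, and those of day 5 0.34, 0.66, 1.15, 0.49 and 0.95. Only 3 day 1 mice had a value, and all were below the controls. The fall was -0.63 ± 0.19 (SE) (adjusted p = 0.025), and it did not pass without control mouse 3 (adjusted p = 0.0638).

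Rpl12 sits at the base of the stalk that binds translation factors. For Rpl12 the ratios were 0.52, 0.30, 1.16, 0.15 and 0.54 in control mice 1 to 5 and 0.25, -0.24, 0.28, -0.88 and 0.18 in day 1 mice 1 to 5. The day 2 mice had 0.22, 0.74, 0.82, 0.68 and 0.24 and the day 5 mice 0.26, 0.79, 0.74, 0.85 and 0.023. Control mouse 3 was the highest and day 1 mouse 4 the lowest, and 3 day 1 mice lay among the controls. The fall of -0.62 ± 0.21 (SE) had an adjusted p of 0.0456, which was 0.0709 to 0.145 in the 5 fits without control mouse 1, 3 or 5 or day 1 mouse 2 or 4. Rpl34 is another eukaryotic protein of the large subunit. Its values were 0.21, 0.22, no value, 0.30 and 0.20 in control mice 1 to 5 and -0.52, -0.36, 0.086, -1.34 and -0.051 in day 1 mice 1 to 5. Values on day 2 were 0.037, 0.52, 0.75, 0.25 and -0.045, and on day 5 -0.0084, 0.68, 0.71, 0.51 and -0.011. The 4 measured controls lay close together, above all day 1 mice, and day 1 mouse 1 was at the shared value. The fall was -0.67 ± 0.22 (SE) (adjusted p = 0.0386). It had an adjusted p of 0.0608 with shared values left out and of 0.0519 to 0.0904 in 7 of the 20 fits that left out 1 mouse (control mouse 1, 2, 4 or 5, or day 1 mouse 1, 2 or 4).

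**Figure D2:**
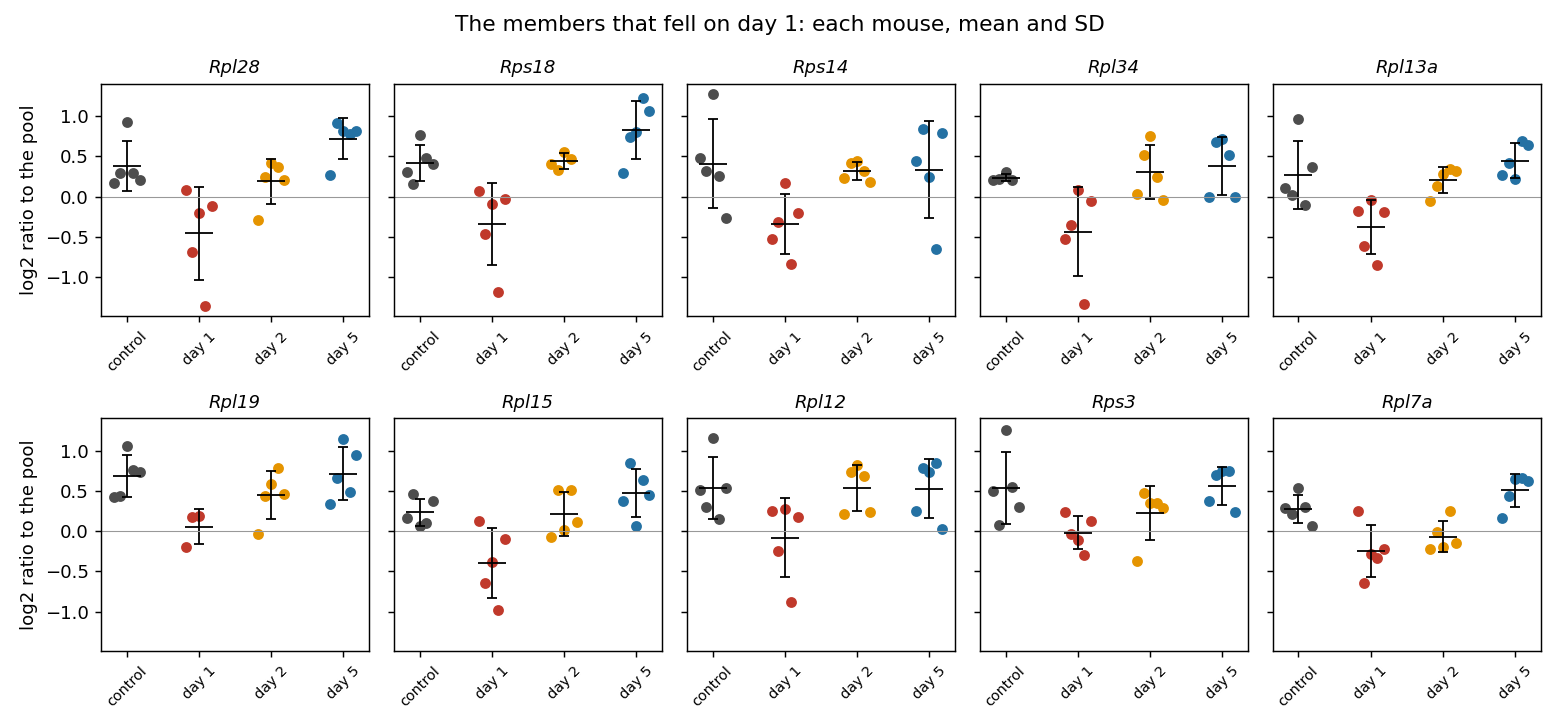
Log2 ratio to the reference pool of the 10 members that fell on day 1, in each mouse (points), with the mean and SD of each group (black). The day 1 mean is the lowest of the 4 in each panel, and for Rpl28, Rps18 and Rpl34 day 1 mouse 4 is far below the others.

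Among small-subunit proteins 3 fell. Rps18 belongs to the head of the small subunit. Its log2 ratio was 0.30, 0.16, 0.76, 0.48 and 0.40 in control mice 1 to 5 and 0.074, -0.47, -0.099, -1.19 and -0.032 in day 1 mice 1 to 5. In day 2 mice they were no value, 0.41, 0.33, 0.56 and 0.46, and in day 5 mice 0.29, 0.74, 0.80, 1.23 and 1.07. Every day 1 mouse was below every control. Rps18 fell 1.70-fold on day 1, a log2 change of -0.76 ± 0.19 (SE) (adjusted p = 0.00929), and was the member that rose from day 1 to day 2, by 0.78 ± 0.20 (SE) (adjusted p = 0.0425). That rise did not pass in 11 of the 20 fits without 1 mouse (control mouse 1, 4 or 5, day 1 mouse 2 or 4, day 2 mouse 2, 3, 4 or 5, or day 5 mouse 2 or 3), where its adjusted p was 0.0503 to 0.121. From day 1 to day 5 Rps18 rose 2.24-fold (adjusted p = 0.000139).

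Rps14 lies on the platform of the small subunit, and partial loss in humans is tied to a form of myelodysplastic anaemia. The ratios of Rps14 were 0.48, 0.32, 1.27, 0.25 and -0.27 in control mice 1 to 5 and -0.52, -0.31, 0.17, -0.85 and -0.20 in day 1 mice 1 to 5. On day 2 the mice had 0.23, 0.42, 0.45, 0.32 and 0.18, and on day 5 0.44, 0.84, 0.25, -0.65 and 0.79. Control mouse 5, day 1 mice 1 and 5 and day 5 mouse 4 were at the shared value, and control mouse 5 lay among the day 1 mice. The fall was -0.75 ± 0.25 (SE) (adjusted p = 0.0354), and its adjusted p was 0.0514 to 0.120 in the 6 fits without control mouse 1 or 3 or day 1 mouse 1, 2, 4 or 5. Rps3 lies where the messenger enters the small subunit and is also known in DNA repair. For Rps3 they were 0.50, 0.083, 1.26, 0.55 and 0.30 in control mice 1 to 5 and 0.24, -0.037, -0.11, -0.30 and 0.12 in day 1 mice 1 to 5. Mice of day 2 had -0.36, 0.48, 0.35, 0.35 and 0.29, and those of day 5 0.38, 0.69, 0.75, 0.75 and 0.24. Control mouse 3 was far above the others, and control mouse 2 lay among the day 1 mice. The fall of -0.56 ± 0.18 (SE) (adjusted p = 0.0341) had an adjusted p of 0.0553 to 0.115 in the 6 fits without control mouse 1, 3 or 4 or day 1 mouse 2, 3 or 4. With only the groups compared in the fit, Rpl12, Rpl34 and Rps3 had an adjusted p of 0.0734, 0.057 and 0.0536.

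The members most often at the shared value were Rps23 on 25 arrays, Rpl6 on 16 and Rpl35 on 13, and none of them was called on day 1. Rps23 is part of the decoding centre. Its ratios were -0.53, -0.26, -0.42, -0.71 and -0.42 in control mice 1 to 5 and -0.52, -0.45, -0.28, -0.57 and -0.20 in day 1 mice 1 to 5. The day 2 mice had -0.40, -0.43, -0.10, -0.62 and -0.20 and the day 5 mice -0.23, -0.21, -0.46, -0.65 and -0.55. All 5 controls, day 1 mice 1, 3, 4 and 5, day 2 mice 1 and 4 and day 5 mice 4 and 5 were at the shared value. The groups overlapped, and the day 1 difference was 0.065 ± 0.12 (SE) (adjusted p = 0.741). Rpl6 is a large-subunit protein. It had ratios of -0.26, -0.26, -0.27, 0.16 and -0.27 in control mice 1 to 5 and -0.52, -0.41, -0.28, -0.18 and -0.20 in day 1 mice 1 to 5. Values on day 2 were -0.11, -0.38, 0.56, -0.62 and -0.031, and on day 5 0.17, 0.22, 0.11, -0.65 and 0.039. All controls but mouse 4, day 1 mice 1, 3 and 5 and mouse 4 of days 2 and 5 were at the shared value. The day 1 difference was -0.14 ± 0.18 (SE) (adjusted p = 0.628). Rpl35 lies near the exit of the peptide tunnel. For Rpl35 the ratios were -0.24, -0.26, -0.38, -0.0077 and -0.27 in control mice 1 to 5 and 0.022, -0.48, -0.28, -1.46 and -0.20 in day 1 mice 1 to 5. In day 2 mice they were 0.12, 0.17, 0.39, -0.62 and 0.060, and in day 5 mice 0.16, 0.88, 0.43, -0.65 and 0.16. Day 1 mouse 4 was far below all others, and control mice 2, 3 and 5, day 1 mice 3 and 5 and mouse 4 of days 2 and 5 were at the shared value. The day 1 difference was -0.25 ± 0.24 (SE) (adjusted p = 0.511). Of the 16 members never at the shared value, 8 fell on day 1 (median change -0.55). Of the 11 that were at it on some array, 2 fell (median change -0.18). The part of the shared value in this difference was not tested. With shared values left out, 9 of 22 members tested fell on day 1.

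**Figure D3:**
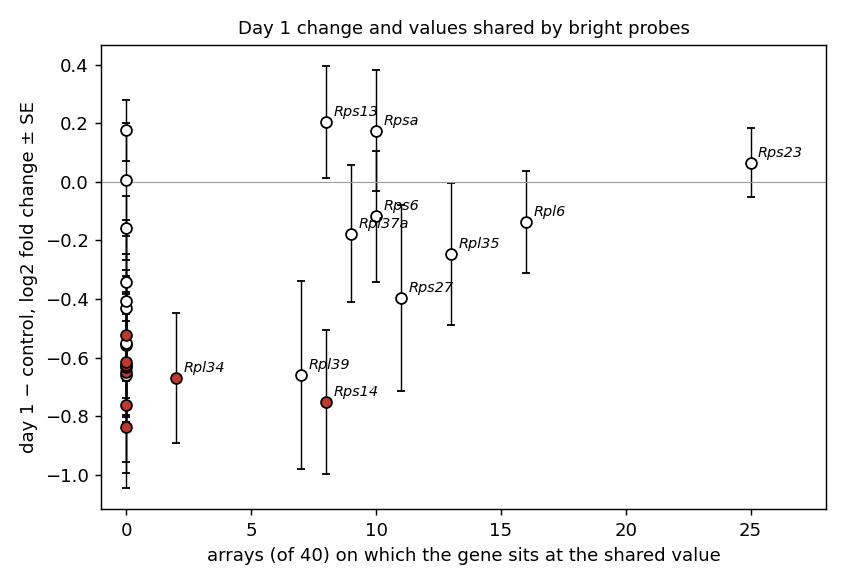
Day 1 minus control log2 fold change with its SE for each member against the number of arrays on which the member was at the shared value. Red points passed the test; 8 of the 10 are at 0 arrays, and Rps23, at 25 arrays, lies at 0.065.

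Other members of known interest were not called on day 1. Rps6 is the substrate of the S6 kinases. Its ratios were -0.53, -0.26, 0.82, -0.33 and -0.27 in control mice 1 to 5 and 0.16, -0.54, -0.12, -0.55 and -0.11 in day 1 mice 1 to 5. On day 2 the mice had -0.40, 0.41, 0.18, 0.40 and 0.27, and on day 5 0.10, 0.67, -0.27, 0.54 and 0.72. All controls but mouse 3, day 1 mice 4 and 5 and day 2 mouse 1 were at the shared value, and the groups overlapped. The day 1 difference was -0.12 ± 0.22 (SE) (adjusted p = 0.753). Rpsa is a small-subunit protein also known as the laminin receptor. For Rpsa the ratios were -0.49, -0.17, -0.28, -0.30 and -0.16 in control mice 1 to 5 and 0.66, -0.66, -0.28, -0.13 and -0.12 in day 1 mice 1 to 5. Mice of day 2 had -0.15, 0.26, -0.13, -0.62 and -0.14, and those of day 5 0.56, 0.35, 0.18, -0.65 and -0.096. The controls other than mouse 4, day 1 mouse 3 and mouse 4 of days 2 and 5 were at the shared value, and the groups overlapped. The day 1 difference was 0.17 ± 0.21 (SE) (adjusted p = 0.598).

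The paralog Rps27l, known as a target of p53, was never at the shared value. Its log2 ratio was 0.0079, 0.48, 0.32, 0.16 and 0.35 in control mice 1 to 5 and 0.87, -0.034, 0.56, -0.67 and 0.63 in day 1 mice 1 to 5. The day 2 mice had 0.42, 0.46, 0.55, 0.89 and 0.55 and the day 5 mice 0.63, 0.60, 0.65, 0.35 and 0.73. The day 1 mice were the most scattered, from mouse 4 below all others to mouse 1 near the top. The day 1 difference was 0.0068 ± 0.19 (SE) (adjusted p = 0.984), and the day 5 difference from control was 0.33 ± 0.19 (SE) (adjusted p = 0.592). Rpl39l, a paralog of Rpl39 most active in testis, differed by 0.18 ± 0.11 (SE) on day 1 (adjusted p = 0.256) and by 0.33 ± 0.11 (SE) on day 5 (adjusted p = 0.108). The other 10 members, not called on day 1 either, differed by -0.66 for Rpl39, -0.66 for Rpl36a, -0.55 for Rpl27, -0.43 for Rpl4 and -0.41 for Rps15. The differences were -0.40 for Rps27, -0.34 for Rps16, -0.18 for Rpl37a, -0.16 for Rpl27a and 0.20 for Rps13, with adjusted p from 0.102 (Rpl4) to 0.642 (Rpl37a). Rps27 ran from -1.77 in day 1 mouse 4 to 1.28 in control mouse 3. It was at the shared value in control mice 1, 2 and 5, day 1 mice 1 and 5 and day 2 mouse 1. Rpl37a was at it in control mice 1, 2, 4 and 5, day 1 mice 3 and 5 and day 5 mouse 4. For Rps13 these were control mice 1, 2 and 4, day 1 mouse 4 and day 2 mouse 5. Rpl5, which with Rpl11 binds Mdm2, and the stalk protein Rplp0 had no value on any array. Rpl11 and Rps19 had no probe of their own in the annotation and were not analysed here.

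Against control, no member was called on day 2 or on day 5. On day 2, 9.61% of all features fell and 9.61% rose by limma at the same threshold. There 1 member was lower (Rpl7a) and 1 higher (Rps13) at an unadjusted p under 0.05. The lowest adjusted p was 0.0617 (Rps13), and the median change was 0.069. On day 5, 1.72% of features fell and 0.906% rose. At an unadjusted p under 0.05, 4 members were higher on day 5 (Rps13, Rpl39l, Rps6 and Rps18) and 0 lower, and the lowest adjusted p was 0.0564 (Rps13). Rps13 and Rps6 were at the shared value, below 0, on 5 and 7 control arrays and on 0 arrays of day 5. Rpl39l and Rps18 were never at it. The median change was 0.24, with 24 of 27 above 0, against 0.0078 over all features. Other ways of treating the values called at most 2 members in each direction on day 2 and 1 on day 5. Quantile normalization called 2 lower and 1 higher on day 2.

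From day 1 to day 5 ribosomal protein transcripts were higher again. Of the 27 members 15 rose and 0 fell, where 12.2% of all features rose and 13.1% fell, and the median change was 0.61 against 0.019 over all features. At an unadjusted p under 0.05, 19 were higher and 0 lower. By subunit, 11 of 15 large-subunit and 4 of 10 small-subunit members rose, and neither paralog did. The same day 1 mice enter this comparison and the one against control. All 10 members that fell on day 1 were among the 15. The other 5 were Rpl39 (1.32 ± 0.32 (SE), adjusted p = 0.00402), Rpl36a (1.31 ± 0.36 (SE), adjusted p = 0.0126), Rps16 (0.71 ± 0.20 (SE), adjusted p = 0.0104), Rpl35 (0.67 ± 0.24 (SE), adjusted p = 0.0441) and Rpl4 (0.54 ± 0.18 (SE), adjusted p = 0.0318). In 6 members (Rpl28, Rpl19, Rps18, Rps3, Rpl13a and Rpl36a) every day 5 mouse with a value was above every day 1 mouse, as for 8.21% of all features. The count was 9 without day 1 mouse 2, 10 without day 1 mouse 4 or day 5 mouse 2, and 10 of 24 without both control mouse 3 and day 1 mouse 4. Of the 15 rises 8 passed in all 20 fits that left out 1 mouse. Rpl19 passed in the 17 of them that tested it, none of which left out a day 1 mouse with a value. Rpl36a passed in 14, none of which left out a day 1 or day 5 mouse with a value, so that these fits say nothing of its rise. Rps3 did not pass without day 5 mouse 3 (adjusted p = 0.0504). Rpl12 did not without day 1 mouse 2 or 4 or day 5 mouse 2, 3 or 4 (0.0817 to 0.119), nor Rpl4 without day 1 mouse 2, 3 or 5 or day 5 mouse 2, 4 or 5 (0.0506 to 0.115). Rpl35 did not without day 1 mouse 2, 3 or 4 or day 5 mouse 1, 2, 3 or 5 (0.0538 to 0.141). Rps14 lost the call in 14 of 20 such fits (0.0504 to 0.127), among them those without day 1 mouse 1, 2, 4 or 5 and without day 5 mouse 1, 2, 3 or 5.

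Rpl39 lines the peptide tunnel. Its ratios were -0.33, 0.43, 0.015, -0.36 and -0.27 in control mice 1 to 5 and -0.44, -0.90, -0.35, -2.11 and -0.015 in day 1 mice 1 to 5. Values on day 2 were -0.62, 0.37, -0.39, -0.62 and -0.14, and on day 5 0.52, 1.16, 0.85, -0.65 and 0.91. Day 1 mouse 4 was the lowest value of any member, and control mouse 5, day 1 mouse 1 and mouse 4 of days 2 and 5 were at the shared value. The other 4 day 5 mice were above all controls. Rpl36a lies near the exit site for transfer RNA. For Rpl36a they were 0.35, 0.13, no value, -0.67 and 0.76 in control mice 1 to 5 and no value, 0.19, -0.29, -1.45 and no value in day 1 mice 1 to 5. In day 2 mice they were -0.021, 0.88, 0.14, 0.75 and no value, and in day 5 mice no value, 0.80, 0.95, no value and 0.62. Only 3 mice were measured on days 1 and 5, and these did not overlap. Between neighbouring days, 1 member rose from day 1 to day 2 (Rps18, where 1.36% of all features rose and 0.736% fell) and 1 from day 2 to day 5 (Rpl7a, where 10.3% rose and 10.5% fell). The median change was 0.48 in the first step and 0.19 in the second, and 14 members were higher at an unadjusted p under 0.05 in the first and 4 in the second. Leaving out 1 mouse moved these counts to 0 to 3 and 1 to 3, and the median change of the first step was 0.30 without day 1 mouse 4.

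**Figure D4:**
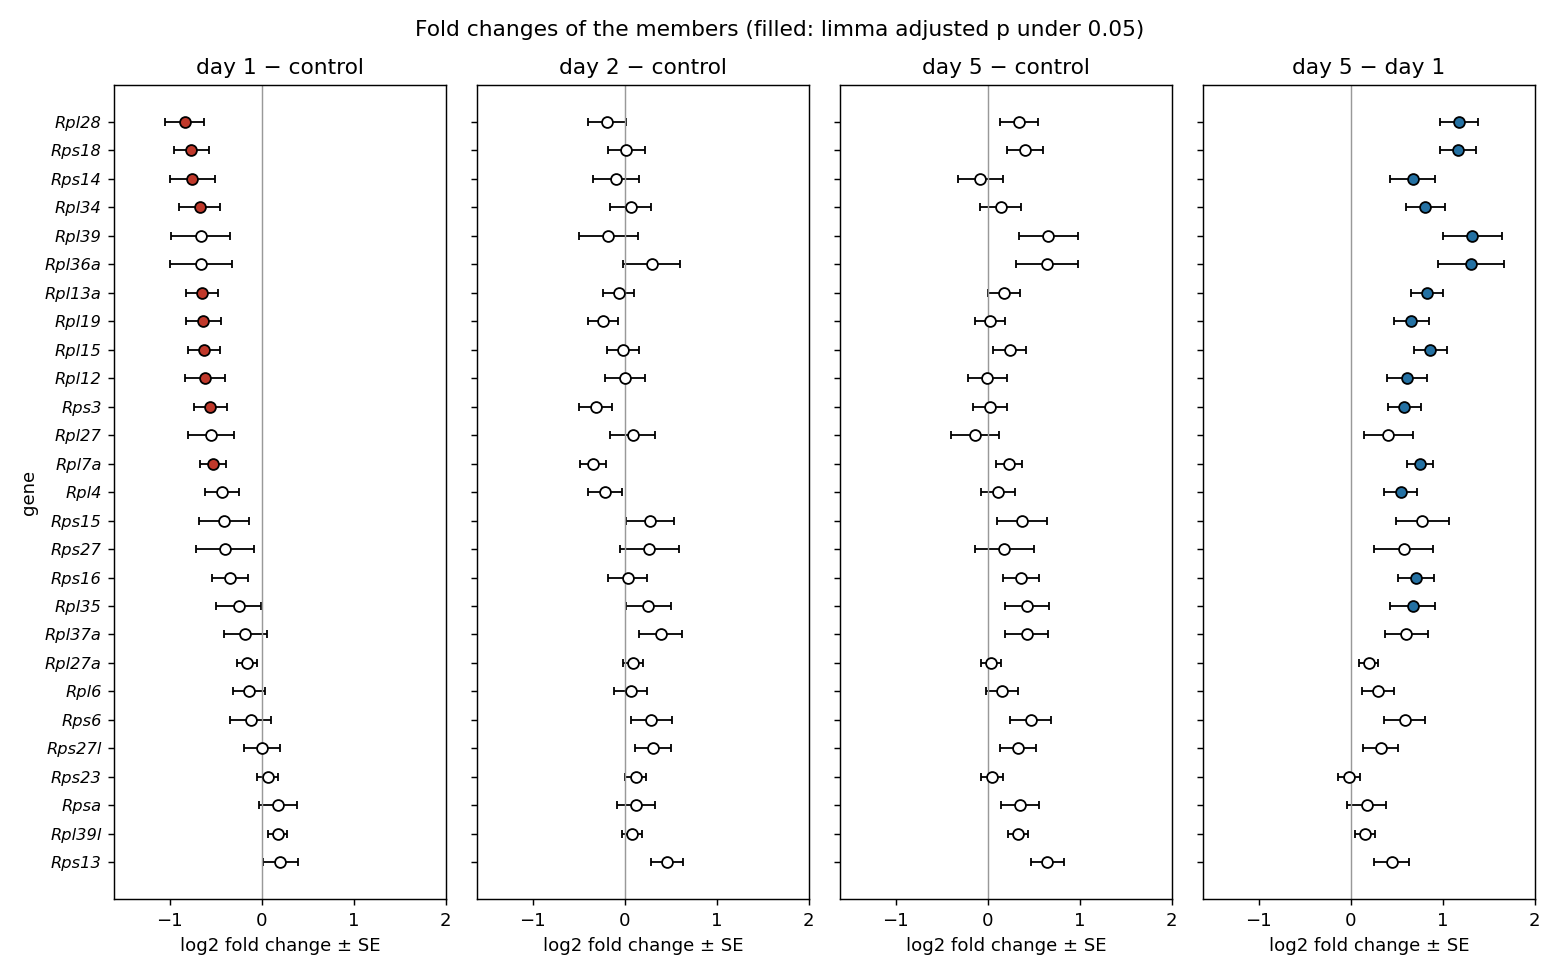
Log2 fold change with its SE of each member in 4 comparisons, filled where limma's adjusted p was under 0.05 (red for lower, blue for higher). In day 1 minus control 10 are filled, in day 2 and in day 5 minus control 0, and in day 5 minus day 1 15.

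The members varied together from mouse to mouse. The median of the 18 members measured in all 20 mice was 0.052, 0.043, 0.57, -0.056 and -0.11 in control mice 1 to 5 (mean 0.10 ± 0.27, SD, n = 5). It was 0.10, -0.56, -0.21, -0.76 and -0.11 on day 1 (mean -0.31 ± 0.35). The day 2 mice had -0.13, 0.27, 0.15, 0.29 and 0.14 (0.14 ± 0.17) and the day 5 mice 0.27, 0.56, 0.22, 0.40 and 0.57 (0.40 ± 0.16). All features of the same mice had medians between -0.060 and 0.010. The groups overlapped between control and day 1, where day 1 mouse 1 was above 4 of the controls, and did not overlap between day 1 and day 5. For the 9 of these members never at the shared value, the mean of such medians was 0.34 ± 0.30 (SD) in controls. It was -0.25 ± 0.39 on day 1, 0.20 ± 0.16 on day 2 and 0.56 ± 0.17 on day 5. In these 9 the day 2 mean lay below the control mean, while in all 18 it lay above. Over the 20 mice, pairs of members correlated at a median Pearson r of 0.47 (-0.36 to 0.90 over 153 pairs), and at 0.63 over the 36 pairs never at the shared value. Pairs of all features measured in all 20 mice had a median of 0.0017, from -0.96 to 0.99. With group means removed the members' median was 0.35, and this was not computed over all features. Members share arrays, cells and, in part, the shared value, so these are descriptions.

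**Figure D5:**
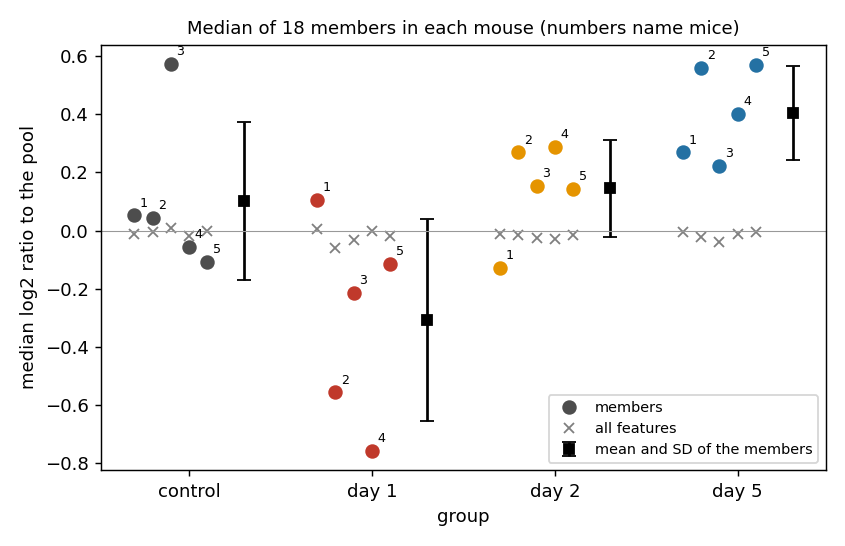
Median log2 ratio of 18 members in each mouse (coloured points, numbered by mouse) with the mean and SD of each group (black) and the median of all features of the mouse (grey crosses). Day 1 mice range from -0.76 to 0.10 and day 5 mice from 0.22 to 0.57, while the crosses stay near 0 and control mouse 3 is apart from the other controls at 0.57. Of the 18 members, 9 were at the shared value on some array. Over the 9 never at it, not drawn here, the mean was 0.34 in controls and 0.20 on day 2.

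The named genes most like the member median over the 20 mice, of 2236 compared, were Cox8a and Eef1b2 (Pearson r 0.885 each), Plac8 (0.868), Ndufc1 (0.865), Utp20 (0.858), Cox6a1 (0.854), Snrpe (0.854), Eloc (0.847), Cox6b1 (0.846) and Krtcap2 (0.844). Cox8a, Cox6a1 and Cox6b1 are subunits of mitochondrial cytochrome oxidase and Ndufc1 of complex I, Eef1b2 is a translation elongation factor, Snrpe a spliceosome protein and Utp20 a factor of small-subunit assembly. Cox8a averaged 0.21 in the controls and -0.33, 0.32 and 0.41 on days 1, 2 and 5.

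Of 22 other translation genes tied to ribosomes or to pyrimidine-run messengers, 9 were measured well enough, and on day 1 2 fell and 0 rose. Eif3k and Eif3f, subunits of the initiation factor that binds the small subunit, changed by -0.86 ± 0.17 (SE) (adjusted p = 0.00164) and -0.60 ± 0.18 (SE) (adjusted p = 0.0228). Eif3k was also lower on day 2, by -0.53 ± 0.17 (SE) (adjusted p = 0.0296). From day 1 to day 5, 4 of the 9 rose: Eif3k, Eif3f, Eef1a1 (0.65 ± 0.17 (SE)) and Eef1b2 (0.72 ± 0.16 (SE)). Of 23 genes of ribosome assembly and its regulators 5 were measured, and 1 rose on day 1. This was Eif6, which keeps the subunits apart during assembly, at 0.51 ± 0.12 (SE) on day 1 (adjusted p = 0.00828) and 0.34 ± 0.12 (SE) on day 2 (adjusted p = 0.0472). From day 1 to day 5 Eif6 fell by 0.40 ± 0.13 (SE) and Ubtf, a factor of ribosomal RNA transcription, by 0.35 ± 0.12 (SE) on the log2 scale. Nop58, Nhp2, Myc and Ubtf were not called in any day against control. Between days, Nop58 changed by 0.64 ± 0.17 (SE) from day 1 to day 2 (adjusted p = 0.0418). It changed by -0.59 ± 0.17 (SE) from day 2 to day 5 (adjusted p = 0.0129).

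Marker genes of marrow cell types moved in the same comparisons, and in bulk marrow fewer cells of a type and less RNA per cell cannot be told apart. Granulocyte precursor markers were measured for 2 of 7 genes, Prtn3 and Plac8, and both fell on day 1 (Prtn3 -1.15 ± 0.23 (SE), Plac8 -0.66 ± 0.18 (SE)) and rose from day 1 to day 5. Plac8, the marker measured in all mice, ran from 0.32 to 1.04 in control mice, and the ranges on days 1, 2 and 5 were -0.53 to 0.29, 0.15 to 0.78 and 0.66 to 1.50. Monocyte markers fell on day 1 in 2 of the 3 measured of 6 (F13a1 -0.90 ± 0.11 (SE)); the marker measured in all mice ran from -0.36 to 0.014 in controls and from -1.28 to -0.87 on day 1. Both measured B cell precursor markers of 8 fell (Vpreb1 -1.15 ± 0.22 (SE)). Macrophage markers rose in 2 of the 5 measured of 7 (C1qb 1.27 ± 0.31 (SE)), with mouse means of -0.44 to 0.20 in controls and of 0.30 to 0.80, 0.80 to 1.27 and -0.57 to -0.16 on days 1, 2 and 5. Markers of endothelial cells rose in 2 of 4 measured, of megakaryocytes in 1 of 3 and of mature B cells in 1 of 2. Late neutrophil markers rose in 1 of 6 and fell in 0, and erythroid precursor markers in 1 of 8 (Alas2 1.36 ± 0.21 (SE)) and 0, with 6 of the 8 below 0 and a median of -0.37. No T cell marker was measured well enough. On day 2, late neutrophil markers fell in 4 of 6, erythroid precursor markers in 3 of 8 (Ank1, Rhd and Kel), and macrophage markers rose in 5 of 5. B cell precursor markers fell in 2 of 2 and monocyte markers in 1 of 3. Markers of endothelial cells rose in 3 of 4, of megakaryocytes in 2 of 3 and of mature B cells in 1 of 2. Of the 2 granulocyte precursor markers 0 were called on day 2, with a median change of -0.074. The part of cell types in the changes of the ribosomal proteins was not tested.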

How the data were processed

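The authors' deposited values are 1 log2 ratio (assumed base) of mouse over reference pool per probe and array, per the labels' dyes. Scanner, background correction, normalization and the rule for blank values (40.7% to 69.7% of probes per array) were not stated in the labels or files used here. Probes were named through the platform annotation and the RefSeq table. No value was filled in. The 2 arrays of a mouse were averaged, then probes of a gene. A feature was tested with values in at least 3 mice of each group (5297), by limma 3.58.1 under R 4.3.3 with 1 mean per group over 20 mice, empirical Bayes moderation and Benjamini-Hochberg adjustment over all features, at an adjusted p under 0.05. Precision rests on 5 mice per group, whose p-values measure the spread between these mice; the median SE of a day 1 change over all features was 0.13. Shared values were found as 5 or more probes within 0.001 of each other on an array, including at least 3 of 34 probes that recurred there, and were kept. Of these steps, only the limma fit was tried on simulated mouse values, for day 1 against control and with noise independent between genes. Genes given mouse by mouse were those called in a day against control, the 3 most often at the shared value and 7 fixed genes. The members, gene lists and tests were chosen with earlier results of these data known. Same-numbered mice did not deviate together throughout (correlations of -0.391 to 0.330), so mice were not treated as pairs. Alternatives changed the treatment of shared values, normalization, filters, array averaging, moderation, samples fitted and replicate block, and left out mice.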

Additional observations from a re-analysis of the deposited data

Results flagged for a closer look

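In groups of 4 or 5 mice, 1 mouse stood far from the others, by Dixon's criterion, in 12 of 108 groups of values tested; chance gives about 1 in 20. Control mouse 3 was the high one for Rpl28 (0.93), Rps6 (0.82) and the member median (0.57). Day 2 mouse 1 was the low one for Rpl28 (-0.29), Rps3 (-0.36) and Rps6 (-0.40, with a shared value). Control mouse 4 was high for Rpl34 (0.30, of 4 mice) and Rpl6 (0.16), where the other controls were at the shared value. Day 5 mouse 4 was high for Rpl39l (0.71) and low for Rpl6 (-0.65, at the shared value), day 5 mouse 1 was low for Rpl28 (0.27) and day 2 mouse 4 high for Rps27l (0.89).

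In 17 cases, which are the calls between days given above, the changes against control differed between days by limma's test of the difference. Between day 2 and day 1 this was Rps18 (0.78), and between day 5 and day 2 it was Rpl7a (0.57). Between day 5 and day 1, differences on the log2 scale were 1.32 for Rpl39, 1.31 for Rpl36a, 1.18 for Rpl28, 1.17 for Rps18, 0.87 for Rpl15, 0.83 for Rpl13a, 0.81 for Rpl34 and 0.75 for Rpl7a. They were 0.71 for Rps16, 0.68 for Rps14, 0.67 for Rpl35, 0.66 for Rpl19, 0.61 for Rpl12, 0.58 for Rps3 and 0.54 for Rpl4. The control mice cancel in these differences.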

How the results depend on the processing

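Under 23 to 32 alternatives each, at most 20 of which left out 1 mouse, the 27 called changes of single members gave 837 values, of which 741 passed, 96 did not and 0 changed sign. The 10 falls on day 1 became 1 without control mouse 3 and day 1 mouse 4, and 5 to 10 without 1 mouse. Falls on day 2 (0) were 2 under quantile normalization and 1 with arrays as units, and 0 to 1 without 1 mouse. Rises on day 2 (0) were 1 under quantile normalization, 1 with only the groups compared in the fit and 2 without both mice, and 0 to 1 without 1 mouse. On day 5 the 0 rises became 1 with arrays recentred, under quantile normalization, with both arrays required, with arrays as units and with trend and robust options, and 0 to 1 without 1 mouse. From day 1 to day 2 the 1 rise (Rps18) became 0 with values in all 5 mice of a group, where Rps18 was no longer tested. The count was also 0 with values in at least 2 mice of a group, with only the groups compared and without both mice. It was 4 with both arrays required, 6 with arrays as units and 0 to 3 without 1 mouse. From day 2 to day 5 the 1 rise became 2 without shared values, with values in all 5 mice, with only the groups compared and under the replicate block, 3 under quantile normalization, with both arrays required and without both mice, 4 with arrays as units, and 1 to 3 without 1 mouse. From day 1 to day 5 the 15 rises were 9 to 17 without 1 mouse. The replicate block gave 11 falls on day 1 and 17 rises from day 1 to day 5 and ended the Rps18 call from day 1 to day 2 (adjusted p = 0.0751), where Rpl34 passed instead. Not every same-numbered pair correlated above 0.1, though mice 2 to 5 of day 1 and control, and mice 1, 2, 3 and 5 of days 2 and 5, correlated best with their own number. The cause of these moves was not tested. Signal over background is not known here.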

Other observations

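Of the 36 matching genes not tested, 14 had a value on some array. Rplp2, a stalk protein, averaged -0.076 in 4 control mice, -0.83 in 2 day 1 mice, 0.20 in 3 day 2 mice and 0.40 in 2 day 5 mice. Rps29 had -0.18 in 2 control mice, -0.99 in 1 day 1 mouse, 0.29 in 4 day 2 mice and 0.52 in 3 day 5 mice. Rps10 averaged 0.34 in 3 control mice, -0.089 in 4 day 1 mice and 0.22 in 3 day 2 mice, with 0.66 in 1 day 5 mouse. Rps3a1 averaged 0.23 in 3 control mice, 0.037 in 2 day 1 mice, 0.50 in 3 day 2 mice and 0.64 in 3 day 5 mice. Rpl37 had -0.10 in 3 control mice and 0.10 in 3 day 1 mice, Rpl14 -0.057 in 3 and 0.025 in 2, and Rpl22 0.10 in 2 and 0.10 in 2. Rpl7l1 had 0.16 in 3 control mice and 0.10 in 1 day 1 mouse, and Rpl10 0.18 and 0.0015 in 1 mouse each. The paralog Rpl22l1 had 0.36 in 3 control mice and -1.78 in 1 day 1 mouse. The other 4, Rpl10a, Rps7, Rpl23 and Rpl36al, had no value in control mice or none in day 1 mice. Genes without a value on any array were 34.9% of the matching genes and 30.8% of all named genes, and they include abundant proteins such as Rplp0, Rpl3, Rpl8 and Rps4x.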
